A study of Mus musculus with 6 samples.

Results

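Arterial and arteriolar endothelial cells of the mouse brain were examined after mosaic deletion of Cldn5 in adult mice, the gene of claudin-5, a strand-forming protein of endothelial tight junctions. Of 30586 cell barcodes in 6 libraries, 1936 were taken as arterial by their own transcripts. The arterial cells came from 3 Cldn5 iECKO libraries and 3 control libraries. The iECKO mice were C57Bl6 animals with 2 floxed Cldn5 alleles, the R26 YFP/YFP reporter and Cdh5-creERT2, a recombinase driven by the endothelial VE-cadherin promoter and switched on by tamoxifen. The controls had the same floxed alleles and reporter and no recombinase. Both groups received 100 µl of tamoxifen at 20 mg/ml by gavage on 3 days at about 3 months of age, so drug exposure was shared. Brain microvessel fragments were pulled down with beads against PECAM1 before droplet RNA sequencing. The reporter transcript had 0 UMIs (unique molecular identifiers, each counting 1 captured RNA molecule) in arterial cells of every library, so recombined cells were not marked. How many animals entered a library was not given in the sources used here.

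Arteries and arterioles carry blood into the brain, and their endothelium is distinguished from that of capillaries and veins by Notch signalling and by transcription factors such as SOX17 and HEY1. Arterial endothelium releases endothelins, which constrict the smooth muscle around it. Leukocyte adhesion machinery is a known feature of postcapillary venules. Claudin-5 closes the paracellular route along the whole tree of brain vessels.

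The rule first kept barcodes with at least 1000 UMIs and at most 15% mitochondrial counts. An endothelial cell had at least 3 of 5 endothelial genes (Pecam1, Cdh5, Flt1, Ly6c1 and Esam) and at most 2 UMIs over 6 genes of mural cells and microglia (Vtn, Rgs5, Acta2, Tagln, C1qa and Ctss). An arterial cell then had at least 3 of the 6 genes Gkn3, Bmx, Sema3g, Hey1, Efnb2 and Stmn2. Cells with any UMI of Apln, Plvap or Ackr1, with more than 1 of 6 elastic artery genes, or with more than 2 of 5 reactive genes (Ccn3, Cdh13, Ccdc184, S100a6 and Emp1) were left out. The genes of the rule were therefore described and not tested. The rule gave 322, 135 and 265 arterial cells in iECKO libraries 1 to 3, and 434, 368 and 412 in control libraries 1 to 3. These were 6.75%, 7.47% and 8.57% of endothelial cells in iECKO libraries, against 9.33%, 7.47% and 12.8% in control libraries, so the shares overlapped. The limit on reactive genes met 27.1%, 17.3% and 15.3% of iECKO cells with 3 or more arterial markers, against 8.35%, 8.86% and 7.76% of such control cells. Every iECKO library thus had a higher share of such cells than every control.

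Arterial cells had a median of 6032, 7070 and 7318 UMIs in iECKO libraries, against 5043.5, 5028.5 and 6168 in control libraries. Median mitochondrial percentages were 3.53, 3.60 and 3.84 in iECKO arterial cells, and 3.03, 2.81 and 2.71 in control arterial cells. Their summed counts came to 1032535 to 2444899 UMIs per iECKO library and 2235497 to 3382716 per control library, with the lowest in iECKO library 2. The female-specific transcript Xist stood at 895 CPM (counts scaled to a common library total) in iECKO library 2 and at 803 CPM in control library 2, and below 0.5 CPM in every other library. The part of depth, mitochondrial share and sex in the differences below was not tested. Only 1 barcode was shared between the arterial cells of any 2 libraries.

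Genes that the rule did not use were read as a description of the cells. Endothelial cells that met the same exclusions with 0 or 1 arterial marker (14939 cells) served as the comparison, called other endothelial cells here. On a scale common to both sets, 39 of the 3509 genes with at least 50 CPM in arterial cells were over 2 times higher there in each library. Tmem100, a membrane protein induced by BMP signalling in arterial endothelium, averaged 88.3 CPM in arterial cells and 6.48 CPM in the others. Fbln2, a fibulin of the vessel matrix, averaged 73.9 CPM against 7.41 CPM. Alpl, alkaline phosphatase, averaged 271 CPM against 47.0 CPM, and Vegfc, a vascular growth factor, 90.3 CPM against 14.3 CPM. The guidance receptor gene Unc5b averaged 169 CPM against 36.9 CPM. In the opposite direction, Nr2f2, a transcription factor of venous identity, averaged 15.7 CPM in arterial cells and 93.9 CPM in the others, and the venous glutamine transporter gene Slc38a5 44.1 CPM against 273 CPM. Car4, a carbonic anhydrase of capillaries, averaged 143 CPM against 814 CPM. Of 20 arterial genes outside the rule, 16 were higher in arterial cells of all 6 libraries and 1 was lower, while 11 of 12 venous markers were lower in all 6. The 12 capillary markers were mixed, with 4 higher and 5 lower in all 6. Since every gene counts as used once cells are chosen by their transcripts, these contrasts carry no test. The other cells were chosen for few arterial markers, so genes that vary with those markers were bound to differ. The share of all genes higher or lower in all 6 libraries was not counted.

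Among the 6 genes that chose the cells, Gkn3, a brain artery marker, stood at 52.5, 76.5 and 116 CPM in iECKO arterial cells, against 523, 322 and 198 CPM in control arterial cells. No iECKO library reached the lowest control. Stmn2, a microtubule regulator, stood at 218, 213 and 155 CPM in iECKO arterial cells, against 339, 356 and 224 CPM in controls. Bmx, a tyrosine kinase gene of arterial endothelium, stood at 129, 162 and 113 CPM in iECKO arterial cells, against 160.3, 243 and 171 CPM in controls. Sema3g, a secreted semaphorin, overlapped between groups, at 393, 376 and 227 CPM in iECKO arterial cells against 288, 272 and 213 CPM in controls. Hey1, a Notch target, overlapped too, at 149.8, 143 and 126 CPM in iECKO arterial cells against 197, 154 and 139 CPM in controls. The same held for Efnb2, the arterial ephrin, at 177, 208 and 136 CPM in iECKO arterial cells and 133, 172 and 160.2 CPM in controls. At the edge of the rule, cells with 3 markers averaged 31.4 CPM of Gkn3 in iECKO libraries and 167 CPM in controls, whereas cells just outside it with 2 markers averaged 9.35 CPM and 55.2 CPM. The elastic artery gene set was kept at no more than 1 gene per cell, yet Mgp, which is one of that set, still stood at 501, 343 and 127 CPM in iECKO arterial cells and 119, 231 and 60.6 CPM in controls.

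**Figure D1:**
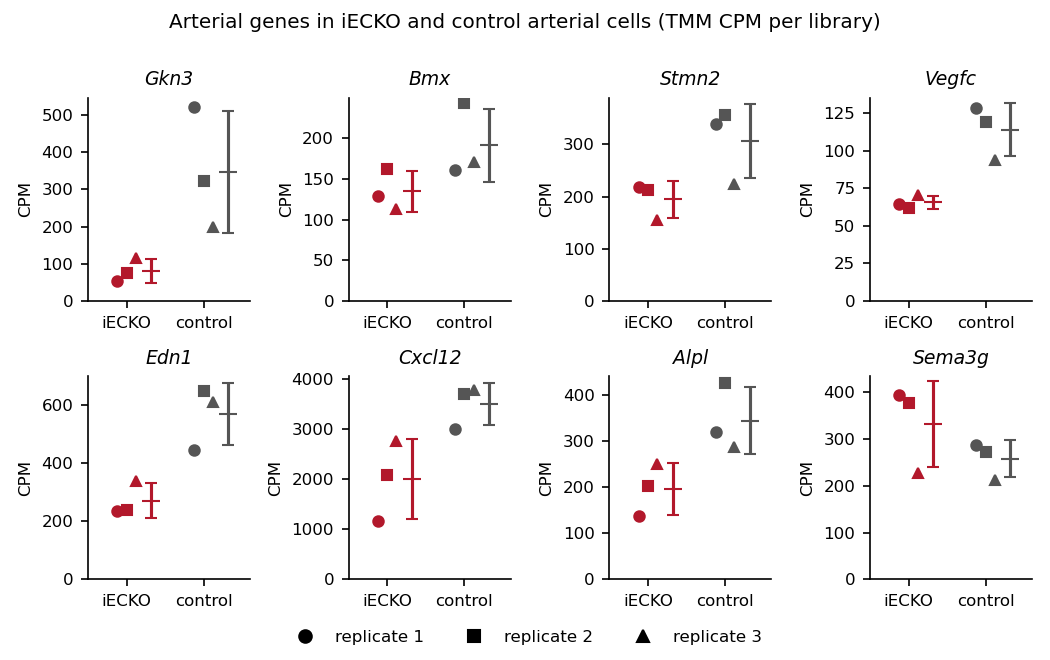
Level of 8 genes (y axis, CPM with TMM scaling, from 0) in arterial cells of the 3 iECKO and 3 control libraries (x axis), with 1 point per library and the mean ± SD beside them. Cxcl12 was listed as a capillary marker and Edn1 under vascular tone. Hey1, Efnb2, Unc5b and Gja4, which overlapped between groups, are not drawn. Gkn3, Bmx, Stmn2 and Sema3g helped to choose the cells; Gkn3, Stmn2, Vegfc, Edn1, Cxcl12 and Alpl lie lower in every iECKO library than in every control.

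Cldn5 (chr16:18776847-18778262 in GRCm38, plus strand) stood at 1967, 1579 and 2226 CPM in iECKO arterial cells, against 4459.5, 4138 and 4543 CPM in control arterial cells. All 3 iECKO libraries lay below all 3 controls. The log2 difference was -1.19 ± 0.22 (SE), with an adjusted p of 0.0466 in edgeR's quasi-likelihood test on counts summed per library. The submitters' methods give no pairing, and replicate numbers were taken as pairs from these counts. With the replicate number as a block in the same test, the difference was -1.20 ± 0.12 with an adjusted p of 3.84e-11. Without the block, omitting any library but iECKO 3 took the adjusted p past 0.05, to 0.0608 to 0.274.

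The deletion was uneven from cell to cell. At an equal depth of 2000 UMIs, 29.0%, 26.3% and 23.8% of iECKO arterial cells were expected to show no Cldn5 UMI, against 0.852%, 1.16% and 0.439% of control arterial cells. The difference of 25.6 percentage points had an exact permutation p of 0.1, two-sided, the smallest that 3 against 3 libraries allow. Without equalising depth the shares were 20.5%, 17.0% and 17.7% in iECKO libraries and 0%, 0% and 0.243% in controls; 0 of 434 cells in control library 1 allows a share of up to 0.691% and 0 of 368 in control library 2 up to 0.815%, counting error only. Among other endothelial cells, the shares at 2000 UMIs were 21.1%, 19.2% and 16.6% in iECKO libraries and 1.01%, 1.53% and 0.494% in controls. Arterial cells exceeded the others by 7.38 ± 0.43 percentage points (SD, n = 3) in iECKO libraries and by -0.20 ± 0.17 in controls. That difference between groups had an exact permutation p of 0.1, again the smallest possible. Microglia, which should lack Cldn5, held a UMI of it in an average of 9.06% of cells in iECKO libraries and 13.4% in controls at the same depth.

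Cldn5 also fell further in arterial cells than in the others. On the common scale it stood at 1975, 1575 and 2235 CPM in iECKO arterial cells against 4478, 4147 and 4592 CPM in control arterial cells, and at 3686, 2758 and 3314 CPM in other iECKO cells against 5766, 4976 and 5550.4 CPM in other control cells. The arterial difference minus that of the others was -0.46 ± 0.07 on the log2 scale, with an adjusted p of 0.000522 in edgeR's interaction test with library as a block.

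**Figure D2:**
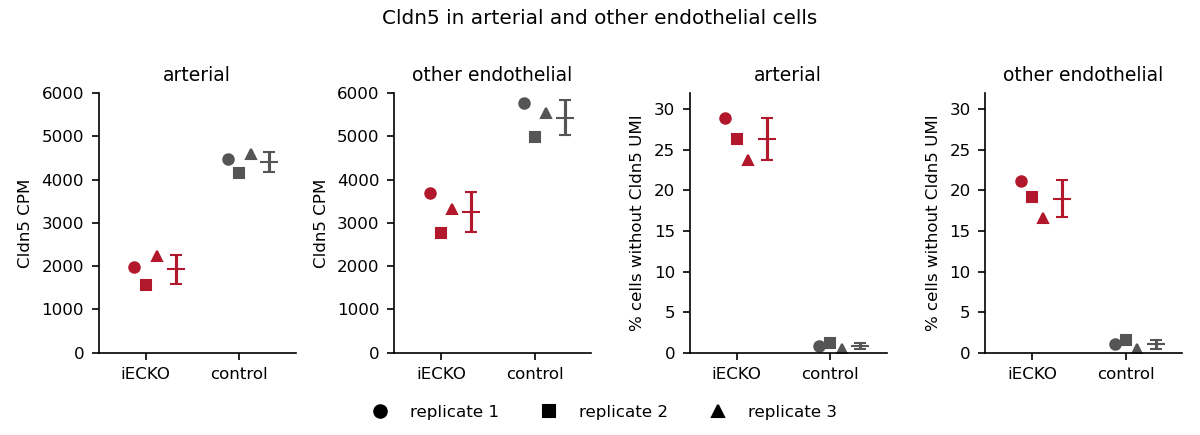
Cldn5 level (2 left panels, CPM from 0) and share of cells expected to show no Cldn5 UMI at 2000 UMIs (2 right panels, percent from 0) in arterial and other endothelial cells, with 1 point per library and the mean ± SD beside them. All iECKO arterial libraries lie between 23.8% and 29.0%, above the other endothelial cells of the same libraries, and all controls lie below 2%.

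Across all genes, 10003 were tested in arterial cells. At an adjusted p below 0.05, 19 (0.19%) were higher and 1 (0.01%) was lower in iECKO arterial cells than in controls. With the replicate block, 219 (2.19%) were higher and 141 (1.41%) lower. The lone lower gene without the block was Cldn5. Every iECKO library exceeded every control for 568 genes (5.68%) and fell short of every control for 423 (4.23%). Without the block, 562 genes (5.62%) had an unadjusted p below 0.05 in either direction. The median log2 difference of all genes tested was 0.00.

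Genes of endothelial activation and leukocyte adhesion were the group with the most members higher in iECKO arterial cells. Of 28 such genes, 17 were tested, 6 were higher in iECKO arterial cells without the block and 11 with it, and none was lower. Their median log2 difference was 1.47, and 12 of the 17 did not overlap between groups, all higher in iECKO. Over all genes tested, 0.19% were higher without the block, 2.19% with it, and 5.68% lay above every control. The 6 were Vcam1, Icam1, Cx3cl1, Relb, Nfkb2 and Csf1, and the block added Birc3, Cxcl1, Lcn2, Il1r1 and Rela. In other endothelial cells the median of this group was 0.77 over 21 genes tested.

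Vcam1 (chr3:116109949-116129688, minus strand) encodes the adhesion molecule that holds leukocytes by their integrin VLA-4. It stood at 219.5, 137 and 159.8 CPM in iECKO arterial cells, against 48.8, 53.1 and 38.2 CPM in controls. The lowest iECKO library was above 2 times the highest control. The log2 difference was 1.90 ± 0.21 (adjusted p = 0.00183, edgeR), and it passed in all 20 settings, the one reported included. Icam1 (chr9:21015985-21028817, plus strand), the ligand of the leukocyte integrin LFA-1, stood at 71.1, 68.3 and 49.2 CPM in iECKO arterial cells, against 17.1, 20.6 and 10.2 CPM in controls. Its log2 difference was 2.00 ± 0.25 (adjusted p = 0.00493), and it too passed in all 20 settings. Per cell at 2000 UMIs, 17.3% of iECKO arterial cells held a Vcam1 UMI on average, against 5.23% of control arterial cells. As a background, microglia held one in 2.01% of cells in iECKO libraries and 1.94% in controls at this depth.

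Cx3cl1 (chr8:94772009-94782427, plus strand) encodes fractalkine, the membrane-bound ligand of the microglial receptor CX3CR1. Its level was 349, 209 and 174 CPM in iECKO arterial cells and 87.6, 98.3 and 79.9 CPM in controls, with a log2 difference of 1.47 ± 0.24 (adjusted p = 0.0251). Csf1, the growth factor of macrophages and microglia, stood at 49.8, 46.9 and 54.4 CPM in iECKO arterial cells, against 18.2, 21.6 and 27.2 CPM in controls. Both genes code for signals read by microglia. Relb, a subunit of the non-canonical NF-kappaB pathway, stood at 68.3, 39.8 and 46.1 CPM in iECKO arterial cells, against 13.2, 16.2 and 22.3 CPM in controls. Its partner gene Nfkb2 stood at 64.7, 48.9 and 30.4 CPM in iECKO arterial cells, against 16.0, 18.2 and 16.2 CPM in controls. The log2 differences of Csf1, Relb and Nfkb2 were 1.17 ± 0.20, 1.58 ± 0.25 and 1.51 ± 0.26, with adjusted p values of 0.0298, 0.0203 and 0.0305.

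Birc3, an inhibitor of apoptosis and NF-kappaB target, passed with the block alone, at 46.2, 27.5 and 27.8 CPM in iECKO arterial cells against 16.7, 14.3 and 17.0 CPM in controls (adjusted p = 0.000211 with the block, 0.116 without). Cxcl1, a neutrophil chemokine, did so at 40.7, 22.4 and 27.4 CPM in iECKO arterial cells against 8.55, 16.7 and 4.58 CPM in controls (0.0142 with the block, 0.207 without). The interleukin-1 receptor gene Il1r1 had a log2 difference of 1.03 ± 0.33 and Rela, the canonical subunit, of 0.66 ± 0.28, with adjusted p values of 0.0068 and 0.00282 with the block and 0.46 and 0.82 without. Other members did not pass in either fit. Nfkb1 stood at 88.7, 94.8 and 88.5 CPM in iECKO arterial cells and 73.7, 82.1 and 81.3 CPM in controls. Nfkbia, the inhibitor of NF-kappaB, stood at 877, 709 and 1033 CPM in iECKO arterial cells and 836, 716 and 780.1 CPM in controls. Tnfaip3, a further brake on the pathway, stood at 69.2, 38.8 and 25.1 CPM in iECKO arterial cells and 7.48, 18.2 and 16.4 CPM in controls, with an adjusted p of 0.413. Sele, Selp and Ccl2 were among the 11 members with too few counts to test.

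**Figure D3:**
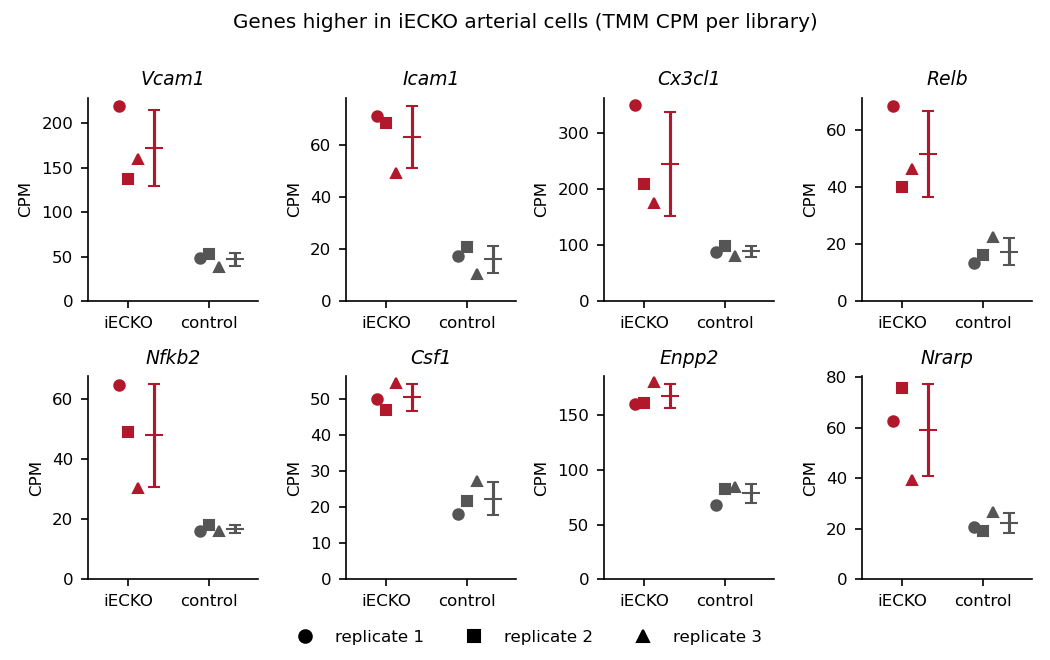
Level of 8 genes (y axis, CPM with TMM scaling, from 0) in arterial cells of the 3 iECKO and 3 control libraries (x axis), with 1 point per library and the mean ± SD beside them. For each of the 8, every iECKO library lies above every control, as with Vcam1 at 137 to 219.5 CPM against 38.2 to 53.1 CPM.

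The promoters of these genes are shown because Relb, Nfkb2 and Rela encode proteins that bind the kappaB element. From RefSeq sequences on GRCm38.p6, 250 bases before to 50 bases after the start, 13 of the 17 tested activation genes had an entry. The kappaB consensus was searched on both strands, overlaps allowed, and is in capitals. The pattern was GGGRNNYYCC, with R for A or G, Y for C or T and N for any base. Where nothing is in capitals there was no match to this pattern. Sites that depart from it by even 1 base were not counted, such as tggaaattcc in the Icam1 window. It was found in 7 of the 13, in 9.55% of the 27025 genes of the promoter table and in 12.2% of the 7963 tested genes with an entry. Among the activation genes higher with the block, 4 of the 9 with an entry held a match, so matches were not confined to genes that were higher. Of the 4 genes higher without the block that had an entry, Csf1 and Nfkb2 held a match, and Icam1 and Cx3cl1 held none in this window; Nfkb2 has several starts, of which 1 is given. Vcam1 and Relb are named only. A match is a description of letters and not of binding.
Csf1, chr3:107760420-107760719, minus strand: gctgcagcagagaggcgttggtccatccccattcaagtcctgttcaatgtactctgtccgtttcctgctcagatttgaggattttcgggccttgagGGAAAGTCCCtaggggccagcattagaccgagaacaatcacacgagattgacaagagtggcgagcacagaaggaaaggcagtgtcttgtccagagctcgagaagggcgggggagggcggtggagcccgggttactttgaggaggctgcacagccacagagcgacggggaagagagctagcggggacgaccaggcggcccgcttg
Nfkb2, chr19:46304487-46304786, plus strand: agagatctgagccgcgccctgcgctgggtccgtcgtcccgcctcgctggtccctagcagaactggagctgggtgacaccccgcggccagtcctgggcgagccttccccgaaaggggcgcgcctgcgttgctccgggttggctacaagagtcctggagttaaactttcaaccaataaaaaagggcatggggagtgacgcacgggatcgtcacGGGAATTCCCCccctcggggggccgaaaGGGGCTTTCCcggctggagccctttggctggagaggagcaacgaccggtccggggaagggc
Icam1, chr9:21015690-21015989, plus strand: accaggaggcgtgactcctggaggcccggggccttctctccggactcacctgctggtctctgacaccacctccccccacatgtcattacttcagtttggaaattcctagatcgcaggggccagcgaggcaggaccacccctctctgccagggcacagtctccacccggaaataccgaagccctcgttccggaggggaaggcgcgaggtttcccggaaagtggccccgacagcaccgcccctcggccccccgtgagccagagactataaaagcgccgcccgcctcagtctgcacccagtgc
Cx3cl1, chr8:94771930-94772229, plus strand: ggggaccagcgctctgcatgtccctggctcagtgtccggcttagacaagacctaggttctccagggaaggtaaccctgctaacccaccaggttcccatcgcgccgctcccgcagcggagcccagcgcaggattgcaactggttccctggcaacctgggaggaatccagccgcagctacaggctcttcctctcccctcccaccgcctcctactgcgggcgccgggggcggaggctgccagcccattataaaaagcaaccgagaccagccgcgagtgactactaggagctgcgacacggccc

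Vcam1, Icam1 and Cx3cl1 were also read in cells split by their Cldn5 UMIs. Cells with at least 2 Cldn5 UMIs, among those of at least 2000 UMIs in all, held Cldn5 at 2414, 1897 and 2676 CPM in iECKO libraries and 4486, 4159 and 4605 CPM in controls, so the split did not bring iECKO cells to the control level. In these iECKO cells Vcam1 stood at 199, 138 and 129.9 CPM and Icam1 at 67.4, 65.4 and 43.4 CPM. Control arterial cells chosen the same way held Vcam1 at 49.5, 49.5 and 37.8 CPM and Icam1 at 17.4, 21.0 and 10.1 CPM. The 64, 22 and 47 iECKO arterial cells with no Cldn5 UMI held Vcam1 at 353, 97.7 and 413 CPM and Icam1 at 91.4, 26.6 and 83.2 CPM. Within library, both genes were higher than in cells with at least 2 Cldn5 UMIs in iECKO libraries 1 and 3. In iECKO library 2, with 22 cells and 112945 UMIs in all, both were lower, which rests on few molecules of either gene. Cx3cl1 stood at 617, 337 and 229 CPM in those iECKO cells with no Cldn5 UMI and at 297, 179 and 169.7 CPM in the iECKO cells with at least 2, so it was higher without Cldn5 UMIs in each library, against 87.2, 98.5 and 80.3 CPM in control cells with at least 2. These values are a description with no test of their own, and the cut on Cldn5 moves with depth.

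Other genes passed both fits. Slc12a2, the sodium-potassium-chloride cotransporter NKCC1, stood at 80.1, 69.3 and 52.9 CPM in iECKO arterial cells, against 26.4, 26.1 and 24.5 CPM in controls (log2 1.39 ± 0.19, adjusted p = 0.0119). Enpp2, which makes lysophosphatidic acid as autotaxin, stood at 161, 161 and 180.1 CPM in iECKO arterial cells, against 68.0, 82.6 and 84.8 CPM in controls (log2 1.09 ± 0.17, adjusted p = 0.0168). Its log2 difference in other endothelial cells was 0.29, with an adjusted p of 0.987, but the difference between cell sets did not pass. Tbx1, a T-box transcription factor, stood at 137, 137 and 168 CPM in iECKO arterial cells and 68.8, 69.3 and 81.8 CPM in controls. Ccnd1, cyclin D1, stood at 321, 288 and 237 CPM in iECKO arterial cells and 164, 88.5 and 93.9 CPM in controls, with log2 differences of 1.01 ± 0.17 and 1.29 ± 0.23 for Tbx1 and Ccnd1. The remaining genes that passed without the block were Tnfaip8l1, Cd82, Meox1, Ppm1j, Il2rg, Prnd, Icosl, Nid1 and Nrarp, some of them outside the naming rule and given after their values were seen.

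Arterial genes outside the rule were lower in iECKO arterial cells where they passed a test. Of 20 such genes, 17 were tested and none passed without the block; 7 had an unadjusted p below 0.05, where the share over all genes was 5.62%. With the block, 6 were lower (Vegfc, Edn3, Alpl, Glul, Sox17 and Tgfb2) and none higher, and the median log2 difference was -0.31. Every iECKO library lay below every control for 5 and above every control for 1, Ptp4a3, a tyrosine phosphatase gene that passed in neither fit (log2 0.42 ± 0.18, adjusted p = 0.803). Over all genes tested, 4.23% lay below and 5.68% above every control, and 1.41% were lower with the block. In other endothelial cells the median of these arterial genes was -0.06. Vegfc stood at 64.7, 62.2 and 70.5 CPM in iECKO arterial cells, against 129, 119 and 94.2 CPM in controls, without overlap (log2 -0.78 ± 0.17, adjusted p = 0.118; 0.000108 with the block). Alpl stood at 137, 203 and 249.5 CPM in iECKO arterial cells, against 319, 426 and 287 CPM in controls (adjusted p = 0.319; 0.0412 with the block). Sox17, a transcription factor of arterial fate, stood at 329.9, 310.0 and 332 CPM in iECKO arterial cells, against 579.9, 371 and 371 CPM in controls, and its adjusted p of 0.0375 with the block was 0.887 without. Glul, glutamine synthetase, stood at 884, 811 and 1354 CPM in iECKO arterial cells and 1457, 1822 and 1835 CPM in controls. Some arterial genes passed in neither fit. Unc5b, the guidance receptor, stood at 132, 212 and 149 CPM in iECKO arterial cells and 153, 169.6 and 197 CPM in controls (log2 -0.09 ± 0.20), which overlapped. Gja4, connexin 37, stood at 19.9, 13.3 and 14.6 CPM in iECKO arterial cells and 29.2, 17.2 and 25.6 CPM in controls and did not pass. Cells with only 3 of the 6 markers made up 64.6%, 51.1% and 52.1% of iECKO arterial cells. In controls they made up 47.5%, 47.3% and 46.1%. Vegfc rose with marker number, averaging 74.2 CPM at 3, 111 CPM at 4 and 161 CPM at 5 or 6 in controls. In iECKO libraries these averages were 50.8, 61.4 and 107.5 CPM. The part of marker number in the differences above was not tested.

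Genes of vascular tone and the response to flow had a median of -0.34 over 12 tested of 17. With the block 2 were lower (1.41% over all genes), both endothelins. Edn1, the precursor of the constrictor endothelin-1, stood at 237, 238 and 339 CPM in iECKO arterial cells, against 446, 648 and 609.7 CPM in controls. The log2 difference of -1.06 ± 0.22 had an adjusted p of 0.0787 without the block and 4.03e-09 with it. Edn3, endothelin-3, stood at 98.2, 141 and 169 CPM in iECKO arterial cells, against 229, 203 and 233 CPM in controls (log2 -0.70 ± 0.20, adjusted p = 0.000251 with the block and 0.319 without). The flow-induced transcription factors did not pass in either fit. Klf2 stood at 1448, 1331 and 2431 CPM in iECKO arterial cells and 2745, 1893 and 2348 CPM in controls, and Klf4 at 559, 598 and 758 CPM in iECKO arterial cells and 1163, 753 and 829.9 CPM in controls. Nos3, endothelial nitric oxide synthase, overlapped at 251, 249.8 and 171 CPM in iECKO arterial cells and 203, 174 and 177 CPM in controls.

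In the Notch pathway, 15 of 18 genes were tested. With the block 1 moved each way, where 2.19% of all genes were higher and 1.41% lower. Nrarp, a Notch target that feeds back on the receptor, stood at 62.5, 75.5 and 39.4 CPM in iECKO arterial cells, against 20.7, 19.2 and 26.6 CPM in controls (log2 1.36 ± 0.24, adjusted p = 0.0339). Lfng, a glycosyltransferase that tunes Notch receptors, stood at 10.9, 12.2 and 19.5 CPM in iECKO arterial cells, against 36.3, 23.1 and 23.7 CPM in controls (adjusted p = 0.0149 with the block, 0.374 without). Other members gave values without passing. The ligand gene Dll4 stood at 253, 265 and 122 CPM in iECKO arterial cells and 105, 115 and 133 CPM in controls. The receptor gene Notch1 stood at 378, 323 and 251 CPM in iECKO arterial cells and 328, 308 and 321 CPM in controls.

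Genes of the basement membrane, matrix and integrins numbered 26 tested of 29, with a median of 0.28. Without the block 1 was higher (0.19% over all genes). With it 8 were higher and 2 lower (2.19% and 1.41% over all genes). Nid1, nidogen-1, which links laminin and collagen IV, stood at 67.4, 63.2 and 44.3 CPM in iECKO arterial cells, against 27.1, 21.1 and 27.5 CPM in controls (log2 1.18 ± 0.21, adjusted p = 0.0339). Nid2 stood at 81.0, 62.2 and 28.9 CPM in iECKO arterial cells, against 20.7, 25.6 and 22.1 CPM in controls, and passed with the block (adjusted p = 0.0304). The laminin chain gene Lamc1 had a log2 difference of 0.67 ± 0.19 and passed with the block. Fbln2, in contrast, stood at 35.8, 45.9 and 64.2 CPM in iECKO arterial cells, against 90.8, 85.5 and 119 CPM in controls (log2 -1.01 ± 0.22, adjusted p = 0.115; 4.75e-07 with the block). Ltbp4, which holds latent TGF-beta in the matrix, had a log2 difference of -0.63 ± 0.19 and was lower with the block.

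Of the angiogenesis and tip cell genes, 20 of 26 were tested. With the block 9 were higher and 1, Eng, was lower (2.19% and 1.41% over all genes). Of the higher ones 2, Prnd and Ccnd1, passed without it (0.19% over all genes). Prnd, a prion-like gene of sprouting endothelium, stood at 8.15, 13.3 and 12.01 CPM in iECKO arterial cells, against 1.42, 0.492 and 1.62 CPM in controls (log2 3.05 ± 0.45, adjusted p = 0.0152). Cd93, a receptor for matrix proteins, stood at 1202, 943 and 727 CPM in iECKO arterial cells, against 514, 499.97 and 514 CPM in controls, and passed with the block (adjusted p = 1.84e-06). Angpt2, the TIE2 ligand, was named after its values were seen: it stood at 62.5, 74.4 and 15.4 CPM in iECKO arterial cells, against 9.97, 11.3 and 5.92 CPM in controls (adjusted p = 1.61e-10 with the block and 0.547 without). In iECKO library 3 it was nearest to the controls.

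The TGF-beta and BMP genes numbered 20 tested of 25. With the block 1 was higher and 5 were lower (2.19% and 1.41% over all genes), and none passed without it. An unadjusted p below 0.05 was reached by 8, against 5.62% of all genes. The ligand gene Tgfb1 stood at 258, 170.3 and 104 CPM in iECKO arterial cells, against 83.0, 67.4 and 66.8 CPM in controls (log2 1.29 ± 0.28, adjusted p = 1.16e-05 with the block and 0.167 without). Tgfb2, a second ligand, stood at 109.5, 262 and 396 CPM in iECKO arterial cells and 208, 548 and 594 CPM in controls, which overlapped between groups, while each iECKO library lay below the control of its own number (log2 -0.85 ± 0.12 with the block). The target genes Id2 and Smad7 and the coreceptor gene Eng were the others that were lower, together with Ltbp4. Id2 stood at 37.1, 45.9 and 41.3 CPM in iECKO arterial cells, against 71.2, 58.5 and 80.2 CPM in controls.

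No junction gene other than Cldn5 passed a test. Of 20, 17 were tested, none passed in either fit, none had an unadjusted p below 0.05, and the median log2 difference was -0.01. For Jam2, Jam3 and Nectin2, 3 of the 17, every iECKO library lay above every control, and for none below. Over all genes tested, 5.68% lay above and 4.23% below. The log2 differences of the 3 were 0.23 ± 0.17, 0.63 ± 0.35 and 0.54 ± 0.27. Ocln, occludin, stood at 243, 249 and 242 CPM in iECKO arterial cells and 256, 268 and 245 CPM in controls. Tjp1, the scaffold ZO-1, stood at 476, 731 and 588 CPM in iECKO arterial cells and 565, 712 and 580.4 CPM in controls. Their log2 differences were -0.07 ± 0.16 and -0.05 ± 0.21. The barrier transporter genes, 26 tested of 27, had a median of -0.02. Without the block none passed, with 4 at an unadjusted p below 0.05 (5.62% over all genes). With it 1 was higher and 4 were lower (2.19% and 1.41% over all genes). Insr, the insulin receptor, stood at 349, 371 and 189 CPM in iECKO arterial cells, against 155, 175 and 136 CPM in controls (adjusted p = 1.84e-06 with the block and 0.177 without). Slc7a1, Slc16a1, Slc38a5 and Tfrc, which carry cationic amino acids, lactate, glutamine and iron-bound transferrin, were the 4, with log2 differences of -0.48 ± 0.20, -0.61 ± 0.27, -0.74 ± 0.22 and -0.38 ± 0.20. Slc2a1, the glucose transporter GLUT1, stood at 2792, 1882 and 1678 CPM in iECKO arterial cells and 2112, 1470.4 and 1666 CPM in controls, whereas Mfsd2a, which carries lysolipids, stood at 364, 338 and 247 CPM in iECKO arterial cells and 412, 356 and 337 CPM in controls. Neither passed.

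**Figure D4:**
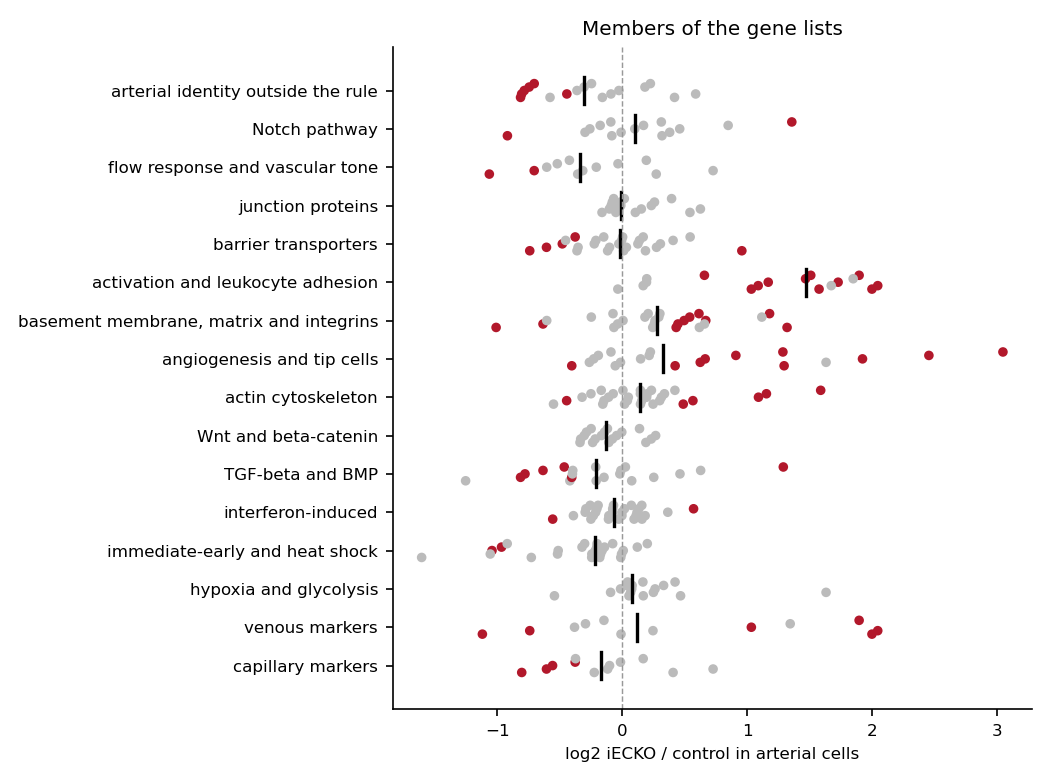
Log2 difference of iECKO from control arterial cells (x axis) for each tested member of 16 gene lists (rows), with 1 point per gene, red where the adjusted p with the replicate block is below 0.05, and the median as a black bar. The activation list has its median at 1.47, the arterial list outside the rule at -0.31 and the junction list at -0.01.

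No gene of the Wnt list (18 tested) or of the hypoxia list (17 tested) passed in either fit. At an unadjusted p below 0.05 there were 0 and 1 (5.62% over all genes). Among 29 interferon-induced genes tested, Ifit2 was higher and Bst2 lower with the block (2.19% and 1.41% over all genes). In the actin list of 30, Capg, Rhoc, Myh9, Cnn3 and Tubb6 were higher and Vcl lower with the block, against the same shares. Capg, a filament-capping protein, stood at 253, 123 and 156 CPM in iECKO arterial cells, against 96.9, 71.3 and 72.7 CPM in controls, without overlap. In the immediate-early and heat shock list of 25 tested, 2 were lower with the block, Gadd45b and Gadd45g (1.41% over all genes). A negative difference was seen in 22 of 25, against 4922 of all 10003 genes.

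Cxcl12, the chemokine ligand of CXCR4, was among the most abundant genes that were lower with the block. It stood at 1163, 2070.1 and 2759 CPM in iECKO arterial cells, against 3002, 3682 and 3778 CPM in controls (log2 -0.80 ± 0.28, adjusted p = 9.08e-05 with the block and 0.546 without). Gja1, connexin 43, stood at 293, 254 and 125 CPM in iECKO arterial cells, against 86.2, 99.3 and 84.3 CPM in controls (adjusted p = 0.0195 with the block and 0.115 without). Other genes lower with the block under the naming rule were Htra1, Alox12, Atp2b4, Kank4 and Dpp4, with log2 differences without the block of -1.23 ± 0.37, -1.22 ± 0.27, -1.09 ± 0.23, -1.05 ± 0.25 and -0.88 ± 0.28. Alox12 encodes an arachidonate lipoxygenase. The naming rule required that these 5 did not overlap between groups.

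Markers of other cell types were summed as shares of the raw arterial counts. The 8 astrocyte genes, all detected and among them Gja1, came to 178 to 306 CPM in iECKO arterial cells and 91.5 to 116 CPM in controls. The 12 venous markers, which include Vcam1, Icam1, Il1r1 and Lcn2, came to 849 to 1509 CPM in iECKO arterial cells and 646 to 839 CPM in controls. The defining venous gene Nr2f2 stood at 16.3, 14.3 and 11.6 CPM in iECKO arterial cells and 17.8, 17.2 and 16.4 CPM in controls, and Slc38a5 at 28.1, 41.8 and 30.8 CPM in iECKO arterial cells and 69.1, 41.3 and 52.2 CPM in controls. Without the cells holding a UMI of either gene, the log2 difference was 2.03 for Vcam1 and 2.42 for Icam1 (adjusted p = 1.86e-05 and 0.000107). A cell can carry either transcript with no UMI of it captured, so this filter does not remove every venous cell. It kept 1638 of 3342 other endothelial cells in control library 1 and 1841 of 3003 in iECKO library 1. The 10 microglial genes came to 48.4 to 68.9 CPM in iECKO arterial cells and 40.4 to 57.7 CPM in controls, the 10 pericyte genes to 20.5 to 36.2 CPM and 14.2 to 25.9 CPM, and the 10 smooth muscle genes to 39.3 to 79.8 CPM and 47.3 to 70.2 CPM, with Actg2 at 0. The 8 fibroblast genes came to 1.94 to 4.50 CPM in iECKO arterial cells and 1.38 to 7.60 CPM in controls, with Slc6a13 at 0. The 8 genes of neurons and oligodendrocytes came to 5.81 to 118 CPM in iECKO arterial cells and 11.2 to 15.9 CPM in controls, with Mog at 0. The 8 blood genes, mostly haemoglobin, came to 28.1 to 12594 CPM in iECKO arterial cells and 3094 to 9039 CPM in controls, with S100a8, S100a9 and Nkg7 at 0. The part of venous cells and of the other cell types in the differences above was not tested.

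Whether genotype differences were the same in arterial and other endothelial cells was tested gene by gene in 11343 genes. The difference was higher in arterial cells for 8 (0.0705%) and lower for 14 (0.123%). Icam1 stood out among the 8: on the common scale it stood at 71.3, 68.2 and 49.4 CPM in iECKO arterial cells against 17.2, 20.7 and 10.3 CPM in control arterial cells, and at 141, 111 and 83.3 CPM in other iECKO cells against 62.0, 119.8 and 51.1 CPM in other controls. The groups were apart in arterial cells and overlapped in the others. Its arterial difference exceeded the other by 1.38 ± 0.16 on the log2 scale (adjusted p = 1.90e-06). In control libraries Icam1 averaged 16.1 CPM in arterial cells and 77.6 CPM in the others, and in iECKO libraries 63.0 CPM and 112 CPM. Icosl, a costimulatory ligand of T cells, was low, at 9.54, 5.09 and 4.14 CPM in iECKO arterial cells against 0, 0.493 and 0.816 CPM in control arterial cells, and differed by 2.80 ± 0.62 (adjusted p = 0.0352). Slc16a9, a monocarboxylate transporter gene, and Gbp5, an interferon-induced GTPase gene, differed by 0.61 ± 0.11 and 0.48 ± 0.10.

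Mbp, the myelin basic protein gene of oligodendrocytes, was also among the 8, at 1.55 ± 0.33. It stood at 83.6, 0 and 9.04 CPM in iECKO arterial cells and 7.15, 4.93 and 4.08 CPM in control arterial cells, and at 30.4, 3.07 and 4.26 CPM in other iECKO cells and 6.83, 6.96 and 5.84 CPM in other controls. The high value was that of iECKO library 1, in which Ttr, a choroid plexus gene, was also at 663 CPM of the raw arterial counts, against 101 and 103 CPM in iECKO libraries 2 and 3 and 56.6, 195 and 0 CPM in controls.

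Col18a1 was among the 14 with a lower difference in arterial cells. The gene of the collagen that yields endostatin, it stood at 24.5, 23.4 and 25.2 CPM in iECKO arterial cells against 40.1, 47.3 and 26.4 CPM in control arterial cells, and at 4.39, 2.53 and 1.96 CPM in other iECKO cells against 1.22, 1.88 and 1.48 CPM in other controls, a difference of -1.57 ± 0.32 (adjusted p = 0.0118). Spry4, an inhibitor of receptor tyrosine kinase signalling, stood at 64.5, 24.4 and 14.3 CPM in iECKO arterial cells against 19.7, 10.3 and 13.6 CPM in control arterial cells, and at 57.9, 25.3 and 10.4 CPM in other iECKO cells against 7.47, 4.15 and 4.21 CPM in other controls. Sema6d, a transmembrane semaphorin, stood at 159, 156 and 48.2 CPM in iECKO arterial cells against 49.7, 50.3 and 39.2 CPM in control arterial cells. The differences of Spry4, Sema6d and the tubulin gene Tubb6 were -1.31 ± 0.21, -1.01 ± 0.12 and -1.47 ± 0.21. In control libraries Spry4, Sema6d and Col18a1 averaged 14.5, 46.4 and 37.9 CPM in arterial cells, and 5.28, 22.5 and 1.53 CPM in the others. Frmd6, an activator of the Hippo pathway, differed by -0.86 ± 0.16. The others with a lower arterial difference were Dll4, Mall, Nrp1, Ctla2b, Sft2d1, Igfbp7, Jag2, Dusp6 and Cldn5, named because they passed, after their values were seen; Ptn, Pir and Xdh completed the 8 with a higher one.

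**Figure D5:**
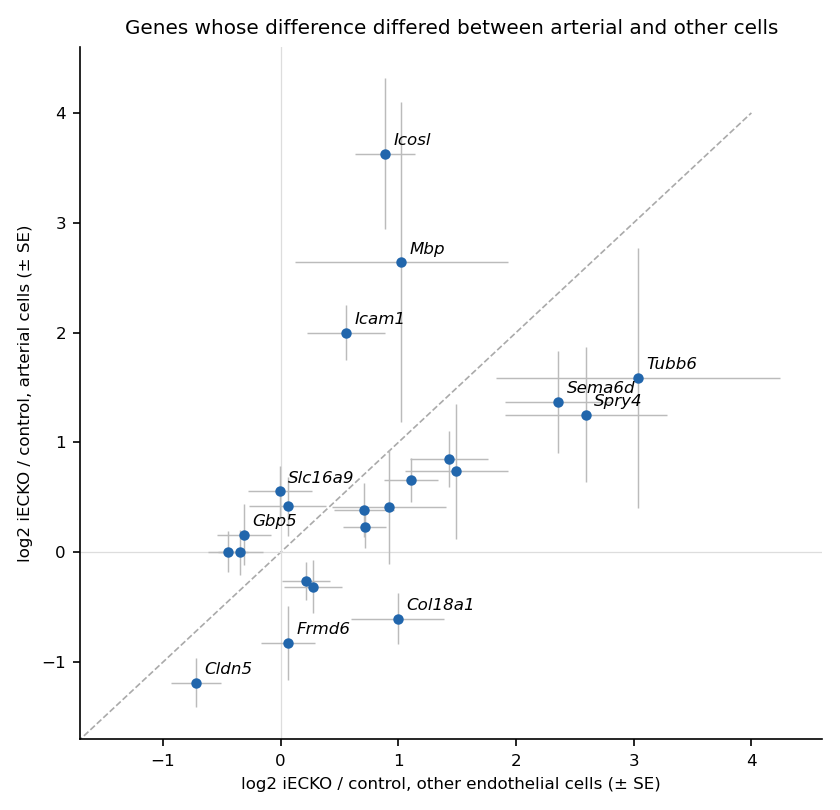
Log2 difference of iECKO from control in other endothelial cells (x axis) and in arterial cells (y axis), each ± SE, for the 22 genes whose difference differed between the 2 cell sets; the dashed line marks equal differences. Icam1, Icosl and Mbp lie above the line, and Cldn5, Col18a1, Tubb6, Sema6d, Spry4 and Frmd6 lie below it.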

How the data were processed

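The deposited files hold raw UMI counts per gene and barcode from 10x Genomics v3.1 libraries. Per the file headers the authors ran Cell Ranger 6.1.1. The genome build was mm10 according to the submitters' processing notes, where Seurat is also named. Deposited barcodes had at least 500 UMIs. The members, gene lists and tests were chosen with earlier results of these data known.

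Cells were chosen by the stated gate, with no doublet caller; an alternative leaves out the top 5% of cells by UMIs. Counts were summed per library, and 3 iECKO libraries were compared with 3 controls by edgeR 4.0.16 in R 4.3.3 (robust quasi-likelihood, TMM factors, filterByExpr, Benjamini-Hochberg adjusted p below 0.05 over all genes tested, two-sided, unpaired). Whether libraries are separate animals was not given in the sources used here, so the p-values cover library-to-library spread, which may be technical. CPM carry TMM factors unless called raw. The interaction of genotype and cell set used the library as a block. Shares without a UMI are exact hypergeometric expectations at 2000 UMIs per cell (cells below left out), with exact permutation tests in scipy 1.17.1. Ratios between cell sets add 1 CPM.

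Libraries with the same replicate number had correlated deviations from their group means over 10003 genes (r = 0.424, 0.360 and 0.359). All other pairs were negative, which deviations from a mean of few libraries partly force, so these add no separate evidence. The submitters' methods give no pairing. The numbers were taken as pairs from these counts, and calls with the block rest on that reading. The block is given where it changes a call. Genes named were Cldn5, the rule genes, the 12 largest differences each way that passed, had no overlap between groups and reached 5 in mean log2 CPM (also from the blocked fit), the 5 largest interactions each way, and up to 5 passing members per list. One gene that the rule names is not reported here. Alternatives were DESeq2 1.42.0, RLE factors, no filter, other cell filters and each library left out. Of 32286 features, 32235 were found in the GENCODE vM21 annotation on GRCm38, which gave coordinates.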

Additional observations from a re-analysis of the deposited data

Results flagged for a closer look

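The genotype difference (log2 iECKO over control, arterial minus other endothelial cells) passed the interaction test for 22 genes, of which the 11 named are listed here because 2 cell sets differed under the same contrast. It was higher in arterial cells by 2.80 for Icosl, 1.55 for Mbp, 1.38 for Icam1, 0.61 for Slc16a9 and 0.48 for Gbp5. It was lower in arterial cells, at -1.57 for Col18a1, -1.47 for Tubb6, -1.31 for Spry4, -1.01 for Sema6d, -0.86 for Frmd6 and -0.46 for Cldn5. Sema6d passed in all 17 settings tried, Tubb6 and Spry4 in 16, Icam1 in 15 and Cldn5 in 14. Icosl passed in 6, Mbp and Gbp5 in 8, Col18a1 and Frmd6 in 12 and Slc16a9 in 13.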

How the results depend on the processing

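Genes higher and lower in iECKO arterial cells numbered 219 and 141 with the replicate block, which moved both counts from 19 and 1. They were 43 and 16 with DESeq2 and 118 and 50 with no filter on low counts. They were 17 and 2 with at least 4 arterial markers, 18 and 0 with any number of reactive genes, 15 and 3 without the top 5% of cells, 24 and 4 with 0 elastic genes, and 16 and 2 with 0 UMIs of Nr2f2 and Slc38a5. Equal numbers of cells gave 5 and 2, and the rule applied at 2000 UMIs per cell gave 7 higher. Leaving out 1 library at a time gave 3 to 79 higher and 0 to 15 lower. Each omission moved the higher count by over 1.5 times: 7, 5 and 79 without iECKO 1, 2 and 3, and 5, 3 and 7 without control 1, 2 and 3. Of the 20 genes, 20 were still called without iECKO 3 and 2 without control 2.

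Interaction genes numbered 20 higher and 47 lower with no filter, 5 and 9 with 0 elastic genes, 23 and 52 with the rule at 2000 UMIs, 23 lower with stricter cell filters and 23 lower with 0 UMIs of Nr2f2 and Slc38a5; leaving out 1 library gave 3 to 28 higher and 8 to 76 lower, the highest of both without iECKO 3. Cldn5 in arterial cells kept its direction but missed the threshold with any number of reactive genes (-1.19, adjusted p = 0.0647), with the rule at 2000 UMIs (-1.05, adjusted p = 0.172) and in 5 of 6 omissions (-1.31 to -1.07 over all 6; adjusted p 0.0321 to 0.274). The difference in cells without a Cldn5 UMI was 31.4 points at 1000 UMIs, 18.1 at 4000 and 18.3 without equal depth. Genes that missed the threshold without the block changed sign: Cnn3 at -0.067, Gbp5 at -0.17 and Slc38a5 at 0.20 with the rule at 2000 UMIs, and Gbp5 without iECKO 3 (-0.088 to 0.449 over the 6 omissions). The alternatives on elastic genes, venous genes, Gkn3 and the rule at 2000 UMIs were added after seeing the data. Apart from fewer samples in omissions, the cause was not tested. Arterial cells of iECKO 2 numbered 135, which limits low genes.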

Other observations

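Endothelial cells with 3 or more arterial markers and 2 or more elastic artery genes, 525 in all, averaged 530 CPM of Vcam1 in iECKO libraries and 386 CPM in controls, and 502 CPM of Gkn3 against 1806 CPM. Vcam1 was thus higher in these cells than in the arterial cells described above in both groups, at 172 CPM in iECKO arterial cells and 47.0 CPM in control arterial cells. Cldn5 averaged 2274 CPM in the elastic cells of iECKO libraries and 5129 CPM in those of controls. The 173 cells left out for reactive genes averaged 1970.3 CPM of Cldn5 in iECKO libraries and 4534 CPM in controls. Icam1 overlapped between groups in both sets. It averaged 59.5 CPM in the elastic cells of iECKO libraries and 51.0 CPM in those of controls. In the reactive cells it averaged 38.5 CPM and 39.2 CPM. These sets were small and were not tested.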
